A study of Mus musculus with 8 samples.

Results

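The circadian clock genes described here are 10 transcripts chosen by name: Arntl (also called Bmal1), Clock, Per1, Per2, Cry1, Nr1d1, Dbp, Tef, Bhlhe40 and Bhlhe41. All 10 were measured, each by a single transcript cluster, among 19938 genes in all. They were followed in triceps muscle of 8 mice aged 3 months, of which 4 were wild-type controls and 4 were Nf1Prx1 mutants, with each animal on an array of its own. Nf1Prx1 mice lack Nf1, the gene of the Ras-inactivating protein neurofibromin, where a Cre recombinase under the Prx1 limb enhancer has acted, which is the mesenchyme of the limb bud and its descendants rather than the muscle fibres as such. The study asked what muscle development needs of Nf1. The clock time at which each muscle was taken is not given in the sources used here.

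The clock is a loop of transcription factors that runs in nearly every cell. CLOCK and the Arntl product bind as a pair to the E-box, a short DNA element, and switch on the Per and Cry genes, whose proteins return to the nucleus and block that pair. Side loops tie in Nr1d1, a nuclear receptor that represses Arntl and Cry1, Bhlhe40 and Bhlhe41, repressors that compete at E-boxes, and Dbp and Tef, bZIP activators of output genes that act through the D-box. In skeletal muscle the loop is known to set daily rhythms of glucose uptake, fuel choice and Myod1. Transcripts of the activator arm and of the E-box targets peak at different times of day.

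Ckm and the other fast-fibre genes marked all 8 arrays as muscle, with a mean over 12 such genes between 12.80 and 13.38 on the log2 scale. Levels are log2 values per transcript cluster, so 1 unit is a doubling, and only differences of the same gene between arrays are read from them. The Nf1 cluster stood at 8.82, 8.92, 8.98 and 8.69 in controls 1 to 4 and at 8.81, 8.63, 8.73 and 8.72 in Nf1Prx1 1 to 4, so the groups overlapped (limma adjusted p = 0.599 unpaired and 0.440 paired). The number of arrays limits the precision. Groups were compared with limma, with p adjusted over all 19938 genes and a threshold of 0.05, once without and once with the replicate number of the titles as a block. The fits are called the unpaired and the paired fit. No label says what a shared number stands for, and the paired values rest on a likeness of same-numbered arrays seen in the data. That likeness did not set number 4 apart. Control 4 and Nf1Prx1 4 were no more alike (r = 0.296 across genes) than control 3 and Nf1Prx1 4 (r = 0.303).

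Control 1 and Nf1Prx1 1 stood apart from the other arrays before any comparison. Their means over 8 neutrophil genes were 9.19 and 9.64, against 6.65 to 7.27 in the other 6 arrays, and their means over 11 adipocyte genes were 10.88 and 11.81, against 8.01 to 9.96. Xist lay between 5.52 and 5.86 in controls 1 and 3 and Nf1Prx1 1 and 2, and between 10.54 and 11.35 in the other 4 arrays, so both groups held animals of either sex in equal number. The pairs numbered 2 and 3 each joined animals of opposite sex. Clock gene results that rest on arrays numbered 1 are given with and without them.

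In Nf1Prx1 triceps 4 of the 10 clock genes were lower in the paired fit and none was higher. These were the repressors Bhlhe40, Bhlhe41 and Cry1 and the activator Tef, by 1.29-fold to 1.63-fold. The remaining 6, Arntl, Clock, Per1, Per2, Nr1d1 and Dbp, passed in neither fit. Over all genes the paired fit called 8.36%, which is 1667 genes, 997 of them lower. The unpaired fit called 0 of the 10, as it did 0.00% of all genes by adjusted p; at an unadjusted p under 0.05 it held Arntl and Cry1, which is 2 of 10, against 13.6% of all genes. The median difference of the 10 was -0.28 on the log2 scale, with 8 means lower, against a median of -0.035 over all genes. The paired fit kept 1 call among the 10, Bhlhe40, once pair 1 was omitted, and 2, Bhlhe40 and Bhlhe41, once pair 2 was omitted. With pair 3 or pair 4 omitted it made 0.

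**Figure D1:**
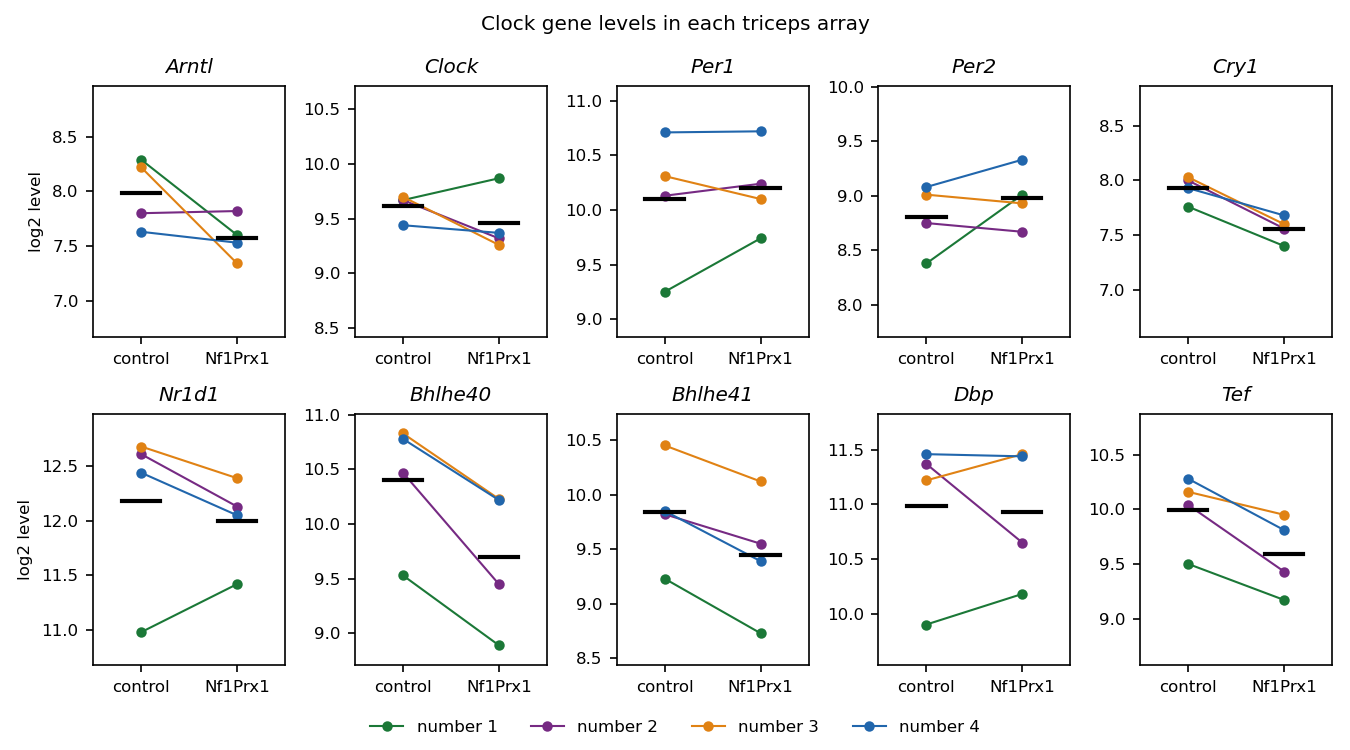
Log2 level (y axis) of each of the 10 clock genes in the 4 control and 4 Nf1Prx1 arrays (x axis); lines join arrays with the same replicate number, black bars are group means, and every panel spans the same height. All 4 lines fall for Cry1, Bhlhe40, Bhlhe41 and Tef, while those of Per1 and Dbp run both ways.

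The promoters of the clock genes were searched for E-boxes, the elements through which the loop drives its own members. Whether E-boxes bear on the differences between the groups was not tested. RefSeq promoter windows of build GRCm38.p6 were matched for 8 of the 10 genes, in 13 windows, and not for Per2 and Bhlhe40. Read as the 250 bases before each transcript start, 5 of the 13 windows held the E-box CACGTG, which reads the same on both strands, against 6.02% of all 32851 windows. By gene it was 4 of the 8, against 6.86% of all genes with windows. Windows of a gene can overlap, as those of Arntl do. The genes were chosen by name as parts of a loop that acts at E-boxes, so these shares are descriptions only. The 5 windows belong to Cry1, Bhlhe41 and Tef, which passed as lower in the paired but not the unpaired fit, and to Per1, which passed in neither. Those of Arntl, Clock, Nr1d1 and Dbp held no E-box. The first base of the E-box lay 60 bases before the start of Cry1, 153 before that of Bhlhe41, 166 before that of Per1 and 127 and 138 before the starts of Tef. The D-box, searched as TTATGTAA and TTACGTAA, and the ROR core TAGGTCA, each on both strands, were in none of the 13 windows, against 0.931% and 2.23% of all windows. Only these exact letters were counted, so variants of the elements and sites outside the windows are not covered. The 5 windows are given on the strand of the gene, with the E-box in capitals.
Bhlhe41 (chr6:145865421-145865670, minus strand): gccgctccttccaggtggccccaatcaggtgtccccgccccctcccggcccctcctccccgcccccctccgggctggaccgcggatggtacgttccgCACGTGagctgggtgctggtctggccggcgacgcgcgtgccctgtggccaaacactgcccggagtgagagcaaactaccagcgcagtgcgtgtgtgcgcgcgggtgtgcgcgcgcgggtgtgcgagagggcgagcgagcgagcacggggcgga
Cry1 (chr10:85185055-85185304, minus strand): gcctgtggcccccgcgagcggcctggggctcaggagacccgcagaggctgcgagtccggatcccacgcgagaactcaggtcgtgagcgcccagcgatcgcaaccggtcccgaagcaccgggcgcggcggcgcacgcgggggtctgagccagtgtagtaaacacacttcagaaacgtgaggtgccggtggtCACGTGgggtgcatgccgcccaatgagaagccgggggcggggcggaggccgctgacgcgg
Per1 (chr11:69098699-69098948, plus strand): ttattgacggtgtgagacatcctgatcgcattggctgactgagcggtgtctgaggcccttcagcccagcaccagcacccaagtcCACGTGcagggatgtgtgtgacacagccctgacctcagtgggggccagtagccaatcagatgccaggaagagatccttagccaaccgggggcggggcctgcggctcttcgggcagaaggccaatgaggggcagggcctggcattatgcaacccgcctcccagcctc
Tef, first start (chr15:81802423-81802672, plus strand): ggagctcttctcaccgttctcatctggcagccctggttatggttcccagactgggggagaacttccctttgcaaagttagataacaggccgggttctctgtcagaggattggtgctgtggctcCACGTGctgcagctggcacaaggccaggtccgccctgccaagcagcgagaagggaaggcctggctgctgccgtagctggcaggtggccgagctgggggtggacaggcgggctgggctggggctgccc
Tef, second start (chr15:81811164-81811413, plus strand): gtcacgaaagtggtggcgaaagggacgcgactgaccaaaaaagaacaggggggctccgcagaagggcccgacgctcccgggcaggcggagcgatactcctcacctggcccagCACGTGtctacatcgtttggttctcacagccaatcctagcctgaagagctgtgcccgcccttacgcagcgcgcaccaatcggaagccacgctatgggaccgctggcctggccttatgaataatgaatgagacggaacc

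Bhlhe40 showed the largest difference of the 10. It encodes a basic helix-loop-helix repressor that the clock and many outside signals induce. Its level was 9.53, 10.47, 10.83 and 10.78 in controls 1 to 4 and 8.89, 9.45, 10.23 and 10.22 in Nf1Prx1 1 to 4. Every Nf1Prx1 array lay below the control of its number, by 0.56 to 1.02, yet the groups overlapped because control 1 was low. The mean was 10.40 ± 0.60 in control and 9.70 ± 0.65 in Nf1Prx1 muscle (SD, n = 4), or 1.63-fold lower. The paired fit gave an SE of 0.10 and an adjusted p of 0.0144, and the unpaired fit an adjusted p of 0.449. With both number 1 arrays omitted the log2 difference was -0.72, and with Nf1Prx1 2 omitted too it was -0.46. Over the pairs left out in turn, the adjusted p of the paired fit was 0.0349, 0.0160, 0.0571 and 0.0749 without number 1, 2, 3 and 4.

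Bhlhe41, the close relative of Bhlhe40 and a repressor at the same elements, was lower too. Its level was 9.23, 9.82, 10.45 and 9.85 in controls 1 to 4 and 8.73, 9.55, 10.12 and 9.39 in Nf1Prx1 1 to 4. Again the number 1 arrays were lowest in each group, and the groups overlapped. The 4 pairs differed by 0.27 to 0.50, which is narrower than the range among controls. Bhlhe41 was 1.31-fold lower (paired adjusted p = 0.0344; unpaired adjusted p = 0.655). With both number 1 arrays omitted its difference was -0.35. Its call ended without the pair numbered 1, 3 or 4, where the adjusted p was 0.0959, 0.104 and 0.130.

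Cry1, whose protein blocks CLOCK and its partner, was the only one of the 10 with groups fully apart. It stood at 7.76, 8.00, 8.03 and 7.93 in controls 1 to 4 and at 7.40, 7.56, 7.60 and 7.68 in Nf1Prx1 1 to 4. The lowest control, number 1, lay above the highest mutant, number 4. Over all genes 6.04% were fully apart in this direction. Means were 7.93 ± 0.12 and 7.56 ± 0.12 (SD, n = 4), or 1.29-fold lower, with a paired adjusted p of 0.0353 and an unpaired adjusted p of 0.175. The difference was -0.37 with both number 1 arrays omitted and -0.34 with Nf1Prx1 2 omitted too. The call ended whichever pair was left out, with paired adjusted p between 0.0796 and 0.129.

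Tef, a PAR bZIP activator of output genes, was 1.33-fold lower. Its level was 9.50, 10.04, 10.16 and 10.28 in controls 1 to 4 and 9.17, 9.43, 9.95 and 9.81 in Nf1Prx1 1 to 4. Nf1Prx1 1 and 2 were lowest, and Nf1Prx1 3 and 4 lay above control 1 and below controls 2, 3 and 4. The paired adjusted p was 0.0409 and the unpaired 0.450. Leaving out any of the pairs took it to between 0.0828 and 0.146. With both number 1 arrays omitted its difference was -0.43, and with Nf1Prx1 2 omitted too -0.28. Together with Cry1, Bhlhe40 and Bhlhe41 it was lower in all 4 pairs, which held for 4 of the 10 clock genes and for 21.3% of all genes.

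The activator arm did not pass. Arntl, the partner of CLOCK, stood at 8.29, 7.80, 8.22 and 7.63 in controls 1 to 4 and at 7.60, 7.82, 7.34 and 7.53 in Nf1Prx1 1 to 4. Controls 1 and 3 were high, while controls 2 and 4 lay within the range of the mutants. The difference was -0.41 (unpaired interval -0.79 to -0.03, adjusted p = 0.333; paired adjusted p = 0.157), carried by pairs 1 and 3, at -0.69 and -0.88, against 0.02 and -0.10 in pairs 2 and 4. By Xist, controls 1 and 3 and Nf1Prx1 1 and 2 were male, and in each group these stood above the females. Pair 3 thus set a male control against a female mutant, and pair 2 the reverse. With sex as a block in limma, Arntl had a difference of -0.41 and an adjusted p of 0.170. Clock, its partner, had means of 9.62 ± 0.12 in control and 9.46 ± 0.28 in Nf1Prx1 muscle (SD, n = 4; paired adjusted p = 0.461), with Nf1Prx1 1 the highest of all arrays at 9.87. With both number 1 arrays omitted the difference was -0.32 for Arntl, and for Clock it went from -0.16 to -0.28.

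The period genes did not pass either. Per1, which besides the clock answers to stress hormones and other acute signals, stood at 9.25, 10.13, 10.31 and 10.71 in controls 1 to 4 and at 9.74, 10.24, 10.10 and 10.72 in Nf1Prx1 1 to 4, and its highest level in both groups was in the array numbered 4. The difference was 0.10 (paired interval -0.18 to 0.38; adjusted p = 0.664), and it turned to -0.029 with both number 1 arrays omitted. Per2 stood at 8.38, 8.75, 9.01 and 9.08 in controls 1 to 4 and at 9.01, 8.67, 8.93 and 9.33 in Nf1Prx1 1 to 4. Its difference of 0.18 had a paired interval from -0.13 to 0.48 (adjusted p = 0.464), with 2 pairs higher and 2 lower. It was 0.036 without control 1, 0.063 without Nf1Prx1 4 and 0.027 with both number 1 arrays omitted.

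Nr1d1 and Dbp, both strongly rhythmic targets of the E-box, varied more within the groups than between them. Nr1d1 was 10.98, 12.61, 12.68 and 12.44 in controls 1 to 4 and 11.42, 12.13, 12.39 and 12.05 in Nf1Prx1 1 to 4. Dbp was 9.90, 11.37, 11.22 and 11.46 in controls 1 to 4 and 10.18, 10.65, 11.46 and 11.44 in Nf1Prx1 1 to 4. For both, each group had its lowest level in the array numbered 1. The differences were -0.18 for Nr1d1 (paired interval -0.54 to 0.18; adjusted p = 0.532) and -0.053 for Dbp (-0.44 to 0.33; adjusted p = 0.885). With both number 1 arrays omitted, Nr1d1 differed by -0.39 (paired adjusted p = 0.0797) and Dbp by -0.17 (paired adjusted p = 0.646).

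**Figure D2:**
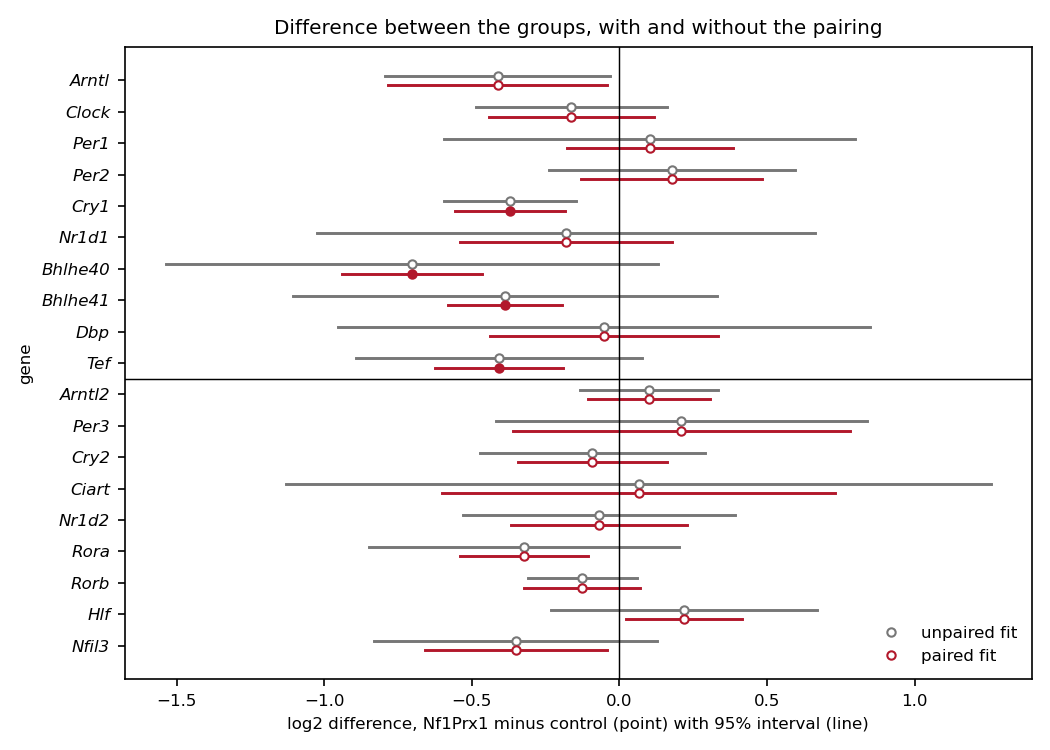
Log2 difference, Nf1Prx1 minus control (x axis), of the 10 clock genes above the line and 9 other loop genes below it (y axis), with 95% intervals of the unpaired (grey) and paired (red) limma fits; filled points passed an adjusted p of 0.05 in that fit. The filled points are Cry1, Bhlhe40, Bhlhe41 and Tef in the paired fit, and no point is filled in the unpaired fit.

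Several clock genes were among the more variable transcripts of the muscle. The SD within groups was 0.68 for Dbp, 0.64 for Nr1d1 and 0.63 for Bhlhe40, at the 97.8th, 97.3rd and 97.2nd percentiles of all genes, whose median was 0.19. For Cry1 it was 0.12, at the 18.8th percentile. Part of the spread sat in the arrays numbered 1, by an amount that differed by gene. Without them the SD was 0.15 for Nr1d1, at the 48.6th percentile. It was 0.34 for Dbp, 0.35 for Bhlhe40 and 0.37 for Bhlhe41, still at the 93.4th, 94.2nd and 95.4th. For Arntl the SD was 0.27 with and without them, at the 74.2nd and 87.0th percentiles. Control 1 had the lowest control level of Per1, Per2, Cry1, Nr1d1, Bhlhe40, Bhlhe41, Dbp and Tef and the highest of Arntl.

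**Figure D3:**
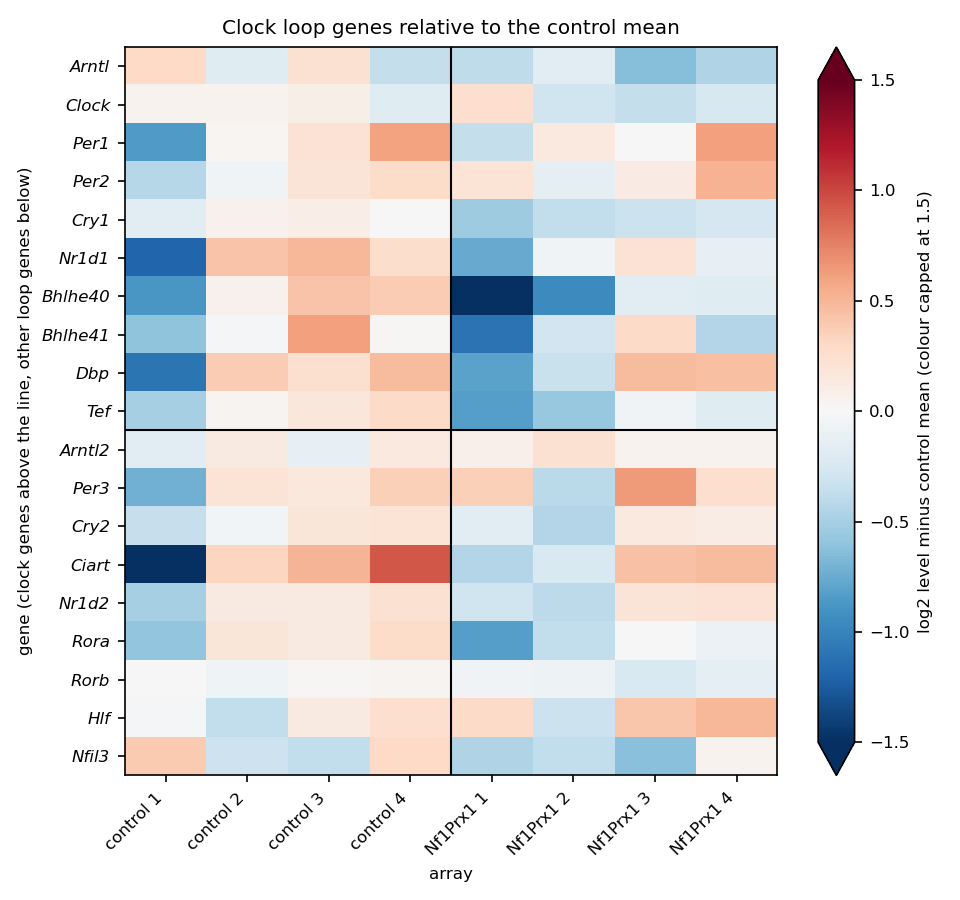
Log2 level minus the control mean (colour, capped at 1.5) of 19 clock loop genes (y axis) in each of the 8 arrays (x axis). Control 1 is the lowest control for Per1, Per2, Cry1, Nr1d1, Bhlhe40, Bhlhe41, Dbp and Tef and the highest for Arntl, and the Nf1Prx1 arrays numbered 1 and 2 are lowest for Bhlhe40, at 8.89 and 9.45.

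None of the other loop genes passed. Of 10 listed, 9 were measured, and Npas2 had no cluster assigned to it alone. Their median difference was -0.07, with 5 means lower. Rora, an activator at ROR elements, was closest to the threshold among those that were lower, at 10.19 ± 0.40 against 9.87 ± 0.37 (SD, n = 4; paired adjusted p = 0.0782), and Nfil3, a repressor at D-boxes, had a difference of -0.35 (paired adjusted p = 0.151). Hlf, the third PAR bZIP factor beside Dbp and Tef, had a difference of 0.22 and was higher in all 4 pairs (paired adjusted p = 0.158). Ciart, a repressor that ran from 8.01 in control 1 to 10.70 in control 4, differed by 0.07. Per3 differed by 0.21, Arntl2 by 0.10, Cry2 by -0.09, Nr1d2 by -0.07 and Rorb by -0.13, with paired adjusted p of 0.406 or more.

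Genes that act on clock proteins and genes with known daily rhythms were listed beside the clock genes. Of 16 measured kinases, ubiquitin ligases and other modifiers of clock proteins none passed, and the smallest paired p belonged to Prkaa2, a catalytic subunit of AMP-activated kinase (difference -0.52, adjusted p = 0.0797), and Fbxw11, a ligase that targets PER proteins (-0.31, adjusted p = 0.0881). Of 21 measured genes with known daily rhythms 2 fell in the paired fit and none rose, a share near the 8.36% of all genes called in that fit. They were Myod1, the myogenic regulator that CLOCK and its partner drive, at 9.06 ± 0.22 in control and 8.62 ± 0.34 in Nf1Prx1 muscle (SD, n = 4; adjusted p = 0.0328), and the hexokinase Hk2, which was 1.29-fold lower (adjusted p = 0.0409). Median differences were -0.17 for the modifiers and -0.25 for the rhythmic genes.

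Genes that answer to acute signals differed from gene to gene, and no input to the clock was itself measured. Of 20 genes that glucocorticoids induce in many tissues 8 rose and 1 fell in the paired fit, which called 8.36% of all genes, with a median difference of 0.15. Trim63 was the gene that fell (-0.88, paired adjusted p = 0.0237). Fkbp5, Lcn2, Mt1 and Ddit4 were among those that rose, with differences of 0.51, 0.90, 1.16 and 0.72 (paired adjusted p = 0.0266, 0.0353, 0.0369 and 0.0431). Among those that did not pass were Tsc22d3, Zbtb16, Klf15 and Klf9, with differences of 0.067, 0.022, 0.094 and -0.36. Whether glucocorticoid input differed was not tested. The smallest p were those of the metallothionein Mt2, 2.22-fold higher with groups fully apart (adjusted p = 0.00890), the lipase inhibitor Angptl4, 1.66-fold higher (adjusted p = 0.0111), the receptor kinase Mertk, 1.68-fold higher (adjusted p = 0.0111), and the sulfotransferase Sult1a1, 1.84-fold higher (adjusted p = 0.0177). Of 23 immediate early genes Jun, Ccn1 and Atf3 fell and none rose, by 1.72-fold, 1.54-fold and 1.72-fold (adjusted p = 0.0106, 0.0168 and 0.0488), beside 997 genes that fell among all 19938. The median of that list was -0.0046. The unpaired fit called none in any of these 4 lists.

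Markers of other cells moved across the same arrays. The counts given here are those of the paired fit, which called 8.36% of all genes. The unpaired fit called none in any of these lists. Of 11 measured adipocyte genes 9 rose, with list means of 8.01 to 10.88 in controls against 9.30 to 11.81 in mutants. Of 10 slow-fibre genes 5 fell, with list means of 9.62 to 10.16 in controls against 8.39 to 10.21 in mutants, and Nf1Prx1 3 held the highest of all. Of 12 fast-fibre genes none passed, but their mean was lowest in Nf1Prx1 1 and 2, at 12.80 and 13.06. These were the male mutants by Xist, and the arrays in which Bhlhe40, Tef and Cry1 were lowest too. Bhlhe41 did not share this order, at 9.55 in Nf1Prx1 2 against 9.23 in control 1 and 9.39 in Nf1Prx1 4. Of 9 fibroblast genes and 10 macrophage genes 4 each rose, with list means of 9.51 to 10.29 and 8.14 to 9.23 in controls against 9.82 to 10.45 and 8.73 to 9.25 in mutants. None of 8 neutrophil, 10 endothelial or 7 Schwann cell genes passed, with list means from 6.65 to 9.64, from 8.76 to 9.39 and from 8.10 to 8.47 over all arrays. The part of these cells in the clock gene differences was not tested. In whole muscle, fewer cells of a type and less RNA per cell cannot be told apart.

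Below the level of whole transcripts, the authors' deposited table gives group means for 149 probe sets of the 10 clock genes, out of 234873. Its p-values imply 5 arrays per group, although its notes speak of 4, and which arrays entered it is unknown. Of the 149, 92 were lower in the mutant in the authors' deposited table, or 61.7% against 53.4% of all probe sets, and none passed an adjusted p of 0.05 computed here over the whole table, which 0.120% of all did. At the authors' unadjusted p under 0.05, 5 of the 149 were lower and none higher, against 7.42% lower among all probe sets. Of these, 1 stood in the authors' lower list, which holds 0.367% of all probe sets. It was probe set 10425603 of Tef, with a control mean of 9.2 (8.9 to 9.3) and a mutant mean of 8.5 (8.3 to 8.9) in the authors' deposited table (p = 0.00121, adjusted here to 0.106). The next smallest p in the authors' deposited table belonged to 10425602, also of Tef, at 9.0 against 8.4 (adjusted 0.179), and to 10553096 of Dbp, at 10.8 against 10.4 (adjusted 0.239).

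By gene, all 5 probe sets of Bhlhe41 and all 9 of Nr1d1 were lower in the authors' deposited table, as were 6 of 7 for Bhlhe40, 13 of 14 for Cry1, 7 of 9 for Tef, 6 of 7 for Dbp and 18 of 22 for Arntl. Median differences in the authors' deposited table were -0.50 for Bhlhe40, -0.45 for Bhlhe41, -0.37 for Arntl, -0.35 for Dbp, -0.29 for Tef, -0.16 for Nr1d1 and -0.13 for Cry1. For Per1 and Per2 they were 0.07 and 0.13, with 17 of 27 and 19 of 24 probe sets higher, and for Clock -0.03, with 13 of 25 lower. Probe sets of a gene read the same RNA and are not replicates. The authors' deposited table shows wide spread for some of them, with a median control SD of 1.34 for Per1 and 0.77 for Arntl, against 0.62 and 0.32 among the 4 control arrays above. The order was reversed for Bhlhe41 (0.32 against 0.50), Bhlhe40 (0.49 against 0.60), Nr1d1 (0.75 against 0.80) and Dbp (0.72 against 0.73). Single probe sets and whole clusters are unlike measures, and the arrays may differ.

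Npas2 could be read only there. Npas2, a paralog of Clock that pairs with the Arntl product, had 22 probe sets in the authors' deposited table, each of them higher, by a median of 0.61. Of the 22, 1 had an unadjusted p under 0.05 in the authors' deposited table, and the smallest p adjusted here was 0.226, so none passed.

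**Figure D4:**
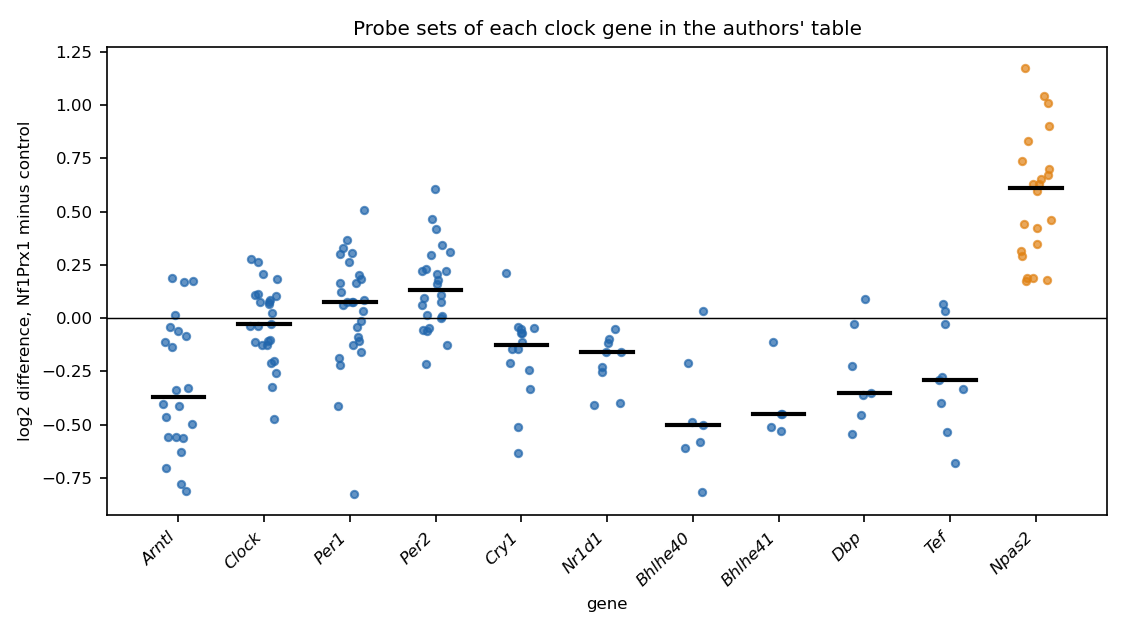
Log2 difference, Nf1Prx1 minus control (y axis), of each probe set (points) of the 10 clock genes (blue) and of Npas2 (orange) along the x axis in the authors' deposited table, with black bars at the median of each gene. All points of Npas2 lie above 0 and all of Nr1d1 and Bhlhe41 below.

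The genes whose levels followed Arntl most closely over the 8 arrays, among 16802 with a mean level of at least 6, were Tnfsf9, Cdh4, Il12a, Armcx6 and Mb21d2, with Pearson correlations of 0.90 to 0.93. The most opposed were Ewsr1, Ddx60, Glul, Dusp6 and Csf2rb2, at -0.93 to -0.91. For Dbp the closest were Tbc1d4, Pde7b, Igf2r, Norad and Rgp1, at 0.98 to 0.99, and the most opposed were the small RNAs Rnu12, Snord49a, Snora21, Snord47 and Snora73b, at -0.98 to -0.97. These 20 values were picked as extremes and are descriptions of 8 arrays that share groups, sex-linked transcripts and the 2 arrays numbered 1. Without those 2 arrays the same 20 correlations ran from 0.85 to 0.98 and from -0.95 to -0.83. No clock gene was among the 20.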

How the data were processed

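Total RNA of triceps from each of 8 mice was hybridised to Affymetrix Mouse Gene 1.0 ST arrays. Per the labels and the submitters' processing notes, the authors deposited log2 values per transcript cluster made by RMA in the Affymetrix Expression Console; versions are not given in the sources used here. Per the file headers, a second deposited table lists probe sets with log2 group means, SDs, minima and maxima, an unadjusted p-value, the ratio of control over mutant, and the fold change, F and T scores of their ANOVA. Per the deposited notes, the lists of higher and lower probe sets were limited to F above 20. The series text names another Affymetrix tool for exon arrays, for steps it does not state. The p-values in that deposited table are those of 8 residual degrees of freedom (within 5.89e-06 at most) rather than 6 (up to 0.0125 off), and its SDs imply 5 arrays per group.

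Clusters with 1 gene symbol (21789 of 35556) were named from the platform annotation and updated through the Entrez ID, which matched 21698. The cluster with the highest mean stood for its gene, with no filter on dim genes. limma 3.58.1 in R 4.3.3 (lmFit, eBayes, two-sided) was fitted over all 19938 genes, with Benjamini-Hochberg adjustment. Both groups carry replicate numbers 1 to 4 in their titles. Arrays that share a number deviated together from their group means, with r = 0.71, 0.57, 0.39 and 0.296 across genes, each above 0.1. Other combinations ran from -0.53 to 0.303, the highest being control 3 with Nf1Prx1 4. The fit with the number as a block is therefore given beside the fit without it. Nothing states separate litters or batches. Both fits were run on simulated levels in which known genes had been shifted. Those levels had independent noise and no effect of the replicate number, so they cannot check the pairing or the calls that rest on it. The clock genes, lists and tests were chosen with earlier results of these data known.

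All 10 clock genes and the 9 measured genes of the loop list are named. From the lists of clock protein modifiers, rhythmic genes, glucocorticoid targets and immediate early genes, those that passed either fit are named, at most 4 by smallest paired p, or the 2 smallest where none passed. Of the glucocorticoid targets, all that passed and some that did not pass are named. For Arntl and Dbp the 5 highest and 5 lowest correlations are named, and of the probe sets those that passed or else the 3 with the smallest p. Tables were read with pandas 2.3.3 and scipy 1.17.1, and figures drawn with matplotlib 3.10.9. Alternatives were each array or pair left out, the arrays that stood apart left out, quantile normalization, a filter on dim genes, array weights, the mean of a gene's clusters, a variance trend and a sex block. The sex block used Xist and Eif2s3y, since Ddx3y had no cluster in the annotation, and was chosen after seeing the data.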

Additional observations from a re-analysis of the deposited data

Results flagged for a closer look

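In 6 of the 38 gene and group combinations tested, 1 array lay far from the other 3 of its group, by Dixon's test at its 95% limit; about 1 in 20 would do so by chance. Control 1 was the lowest control for Nr1d1 at 10.98 (next 12.44), Dbp at 9.90 (next 11.22), Nr1d2 at 10.43 (next 11.07) and Rora at 9.60 (next 10.33). Control 4 was the lowest control for Clock at 9.44 (next 9.67), and Nf1Prx1 2 was the highest mutant for Arntl2 at 7.44 (next 7.29). Control 1 also held neutrophil and adipocyte transcripts at the levels given above, whose part in these low values was not tested.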

How the results depend on the processing

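Of the 21 alternatives to the unpaired fit, Arntl, Clock, Per2, Cry1, Tef, Bhlhe40 and Bhlhe41 kept their direction in all 21, with log2 differences of -0.99 to -0.43 for Bhlhe40, -0.61 to -0.15 for Bhlhe41, -0.43 to -0.31 for Cry1, -0.57 to -0.27 for Tef, -0.56 to -0.26 for Arntl, -0.30 to -0.062 for Clock and 0.027 to 0.28 for Per2. Per1 turned without control 1 (-0.18), without Nf1Prx1 4 (-0.07) and without both arrays numbered 1 (-0.029, paired or not), and ran from -0.18 to 0.31 with single arrays omitted. Nr1d1 turned without Nf1Prx1 1 (0.012; -0.58 to 0.012 with single arrays omitted). Dbp turned without control 2 (0.07), control 3 (0.03), control 4 (0.11), Nf1Prx1 1 (0.20) or Nf1Prx1 2 (0.041), with single-array values of -0.42 to 0.20, in the paired fit without number 2 (0.17), without control 1, Nf1Prx1 1 and Nf1Prx1 2 (0.10), after quantile normalization (0.042) and with array weights (0.041). None of these turned values passed.

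With the replicate number as a block, calls went from 0 to 1667 over all genes and from 0 to 4 for the clock genes, and the block changed no call among the other loop genes. The paired fit called 719, 1202, 206 and 50 genes without pair 1, 2, 3 and 4, of which 1, 2, 0 and 0 were clock genes. Leaving out single arrays of the unpaired fit gave 0 to 3 calls over all genes and 0 for the clock genes. Array weights called 3070 genes, of which 1 clock gene, Cry1 (adjusted p = 0.0163). The sex block called 0 genes over all genes and 0 clock genes. Its adjusted p was 0.317 for Bhlhe40, 0.656 for Bhlhe41, 0.171 for Cry1 and 0.309 for Tef. Over all genes, 96 were called without control 1 and Nf1Prx1 1, 1215 without Nf1Prx1 2 as well and 5 after quantile normalization, with no clock gene among them. Other loop genes were called under none of the 21. By the authors' limits (F above 20, fold of at least 1.5) 1 clock gene probe set passed. By adjusted p none did, with or without dim probe sets. The cause of these shifts was not tested, beyond the fewer arrays of some fits. Probe signal over background was not available at this level.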
